A study of Mus musculus with 8 samples.

Results

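The mouse library labelled R1 ESC was set against the 2 libraries of mouse embryonic fibroblasts (MEF) sequenced with it, ICR MEF and OG2 MEF. These are 3 of the 8 libraries of a survey of cell types and brain tissues, and each was put in its group by its label. R1 is a line of embryonic stem cells that comes from the inner cell mass of 1 embryo, and the labels give its strain as 129X1 x 129S1. The fibroblasts came from embryos at day 13.5, of strain ICR for one library and of strain OG2 for the other. OG2 mice carry a green fluorescent reporter driven by the Pou5f1 promoter. No treatment is named for any of the 3, and all were made from total RNA with the same kit. The sources used here do not give the number of embryos behind each fibroblast culture, the culture medium or the passages. Each group held 1 library, so there was no replicate check and no test across libraries, and values are given library by library. The 29713 genes of the deposited tables were compared.

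Mouse embryonic stem cells are held in the naive state by transcription factors such as Pou5f1, Nanog, Sox2 and Esrrb, with leukaemia inhibitory factor, FGF and Wnt signalling acting on them. Fibroblasts are known instead for secreting collagen and other matrix and for contractile actin fibres anchored at focal adhesions. TPM divides the reads of a gene by its length and sets the sum of each library to 1000000. A gene group that takes a large share therefore lowers the TPM of every other gene, and a library poor in long transcripts lowers the long genes.

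Both conditions held in these libraries. In the library labelled R1 ESC the 90 ribosomal protein genes held 50.7% of TPM and 33.2% of expected counts. In ICR MEF they held 20.3% of TPM and 6.43% of expected counts, and in OG2 MEF 21.4% and 6.87%. The library labelled R1 ESC was also the shallowest, with 2147004 counts against 4805982 in ICR MEF and 5404041 in OG2 MEF. Effective length is the stretch of a transcript on which a fragment can start. Without ribosomal protein genes, the library labelled R1 ESC had a mean of 2249 bases of it behind each count, against 3303 in ICR MEF and 3193 in OG2 MEF. On that scale 5661 genes reached 10 TPM in the library labelled R1 ESC, against 9012 in ICR MEF and 8715 in OG2 MEF.

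Defining markers went only in part with the label. Of 8 markers of embryonic stem cells, Pou5f1 (20.2 TPM, 71 counts), Tdh (14.6 TPM, 73 counts), Nanog (10.3 TPM, 54.8 counts) and Sox2 (4.80 TPM, 32 counts) were detected in the library labelled R1 ESC. The other 4, Esrrb, Zfp42, Dppa5a and Utf1, had 0 counts there, which allows up to 3 counts of each. In the fibroblast libraries none of the 8 passed 0.63 TPM (Sox2 in ICR MEF). All 10 fibroblast markers were detected in the library labelled R1 ESC, and all were below both MEF libraries. Sparc, a collagen-binding matrix protein, stood at 302 TPM against 3203 in ICR MEF and 2832 in OG2 MEF, and the collagen gene Col1a1 at 69.2 TPM against 3058 and 2853. Krt14, a keratin of basal squamous epithelium, stood at 142 TPM against 2.36 in ICR MEF and 0.40 in OG2 MEF, while its usual partner Krt5 had 0 counts in all 3 libraries and the squamous regulator Trp63 had 0 counts in the library labelled R1 ESC. The fibroblast, squamous and stem cell markers move with every comparison given here, and their part in it was not tested. In bulk RNA, fewer cells of a type and less RNA per cell cannot be told apart.

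**Figure D1:**
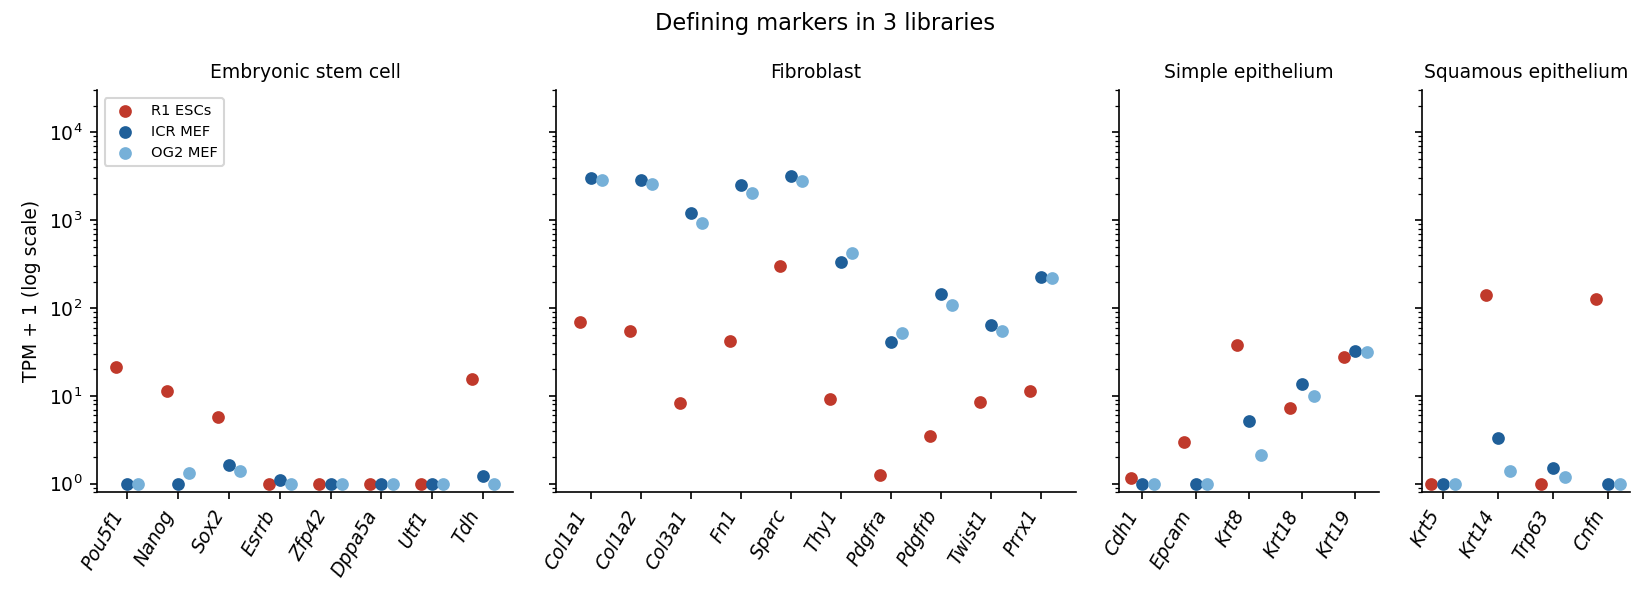
TPM + 1 (log axis) of the defining markers of 4 cell types in the library labelled R1 ESC (red), ICR MEF (dark blue) and OG2 MEF (light blue), 1 point per library. All 10 fibroblast markers lie lower in the library labelled R1 ESC, and Pou5f1, Nanog, Sox2, Tdh, Krt8, Krt14 and Cnfn lie higher, while Esrrb, Zfp42, Dppa5a, Utf1 and Krt5 sit at 0 TPM there.

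A gene was called higher when the library labelled R1 ESC reached 10 TPM and lay at least 4-fold above the higher MEF library, and lower when both MEF libraries reached 10 TPM and the lower of them lay at least 4-fold above the library labelled R1 ESC, with 1 TPM added throughout. On TPM, 409 genes were higher (1.38% of 29713) and 4064 were lower (13.7%). With the ribosomal protein genes left out and the rest rescaled to the same sum, 754 genes were higher (2.55% of 29623) and 3381 lower (11.4%). The rescaling multiplied the values by 2.03 in the library labelled R1 ESC, 1.26 in ICR MEF and 1.27 in OG2 MEF. It removed 911 of the lower calls and added 359 higher ones, and 395 of the 409 higher calls were kept, the other 14 being ribosomal protein genes.

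The remaining imbalance followed transcript length. Across 20 bins of effective length, the median log2 ratio of the library labelled R1 ESC to the nearest MEF library, on TPM without ribosomal protein genes, ran down to -2.56 in the longest bin (median length 6950 bases), against 1.08 in the shortest (408 bases). Between ICR MEF and OG2 MEF the same bin medians lay between 0.00 and 0.15. GC content moved with the ratio too. With genes cut into 5 classes by length and 5 by GC, the median ratio of the shortest class was -0.37 at the lowest GC and 0.78 at the highest, and that of the longest class -2.46 and -1.71. Across 8645 genes, which are not independent, Spearman's rho of the ratio to the mean of the MEF libraries was -0.41 with length and 0.26 with GC. The cause of the trend was not tested.

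**Figure D2:**
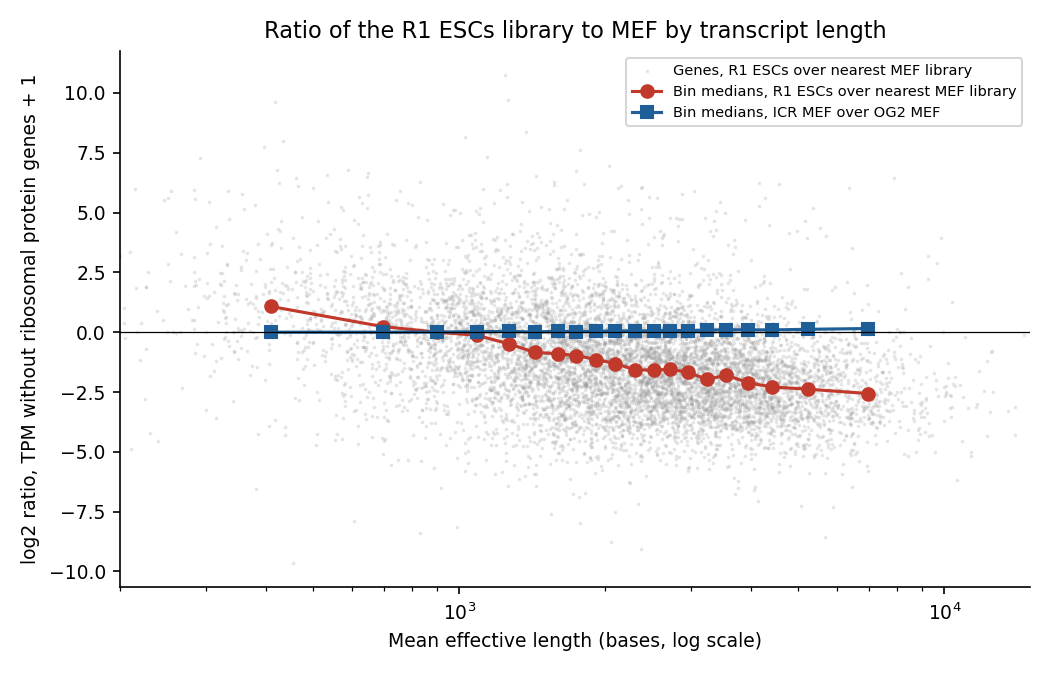
Log2 ratio of TPM without ribosomal protein genes + 1 against mean effective length (bases, log axis) for genes averaging 10 TPM or more over the 3 libraries; grey points are genes. The red bin medians of the library labelled R1 ESC over the nearest MEF library go down to -2.56 in the longest bin from 1.08 in the shortest, while the blue bin medians of ICR MEF over OG2 MEF stay between 0.00 and 0.15.

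Each gene was therefore also set against genes of similar length, by taking from its log2 ratio the median of its length bin. On that scale 1246 genes were higher (4.21%) and 1084 lower (3.66%), and the median over all genes is 0 by construction. Of the genes lower on TPM, 3019 were not lower at similar length. Of the genes higher at similar length, 105 lay below both MEF libraries on TPM, so their direction depends on the scale. On all 3 scales 384 genes were higher (1.3%) and 1021 lower (3.45%), and these are the calls described from here on. The lower share among called genes was 90.9% on TPM, 81.8% without ribosomal protein genes and 46.5% at similar length. When TPM was divided by TMM factors it was 80.8%, with 692 higher and 2916 lower, and with CPM in place of TPM 77.3%, with 886 and 3023. As a gauge of spread between the fibroblast libraries, the SD of the log2 ratio of ICR MEF to OG2 MEF was 0.43, and 43 of 8655 genes were 4-fold apart.

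The 384 higher genes rest on less certain measurements than the 1021 lower ones. Expected counts were not whole for 67.2% of the higher and 21.8% of the lower genes, against 28.0% of all genes averaging 10 TPM or more, so reads of many higher genes were shared with other loci. Effective lengths differed by over 1.5-fold between the 3 libraries for 40.1% of the higher and 13.5% of the lower genes, against 19.5% of all. TPM of such a gene moves with the isoform that RSEM assigned as well as with its reads. With whole counts alone, 126 genes were higher and 798 lower on all 3 scales, and with effective lengths within 1.5-fold 229 and 883.

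Ribosomal protein genes, which encode the structural proteins of the cytosolic ribosome, were unevenly higher. Of the 52 genes of the 60S subunit 10 were higher on TPM and 1 lower, and of the 34 genes of the 40S subunit 4 were higher and 0 lower. The library labelled R1 ESC had 32.0% of its TPM on 60S genes and 17.9% on 40S genes, against 11.4% and 8.58% in ICR MEF and 11.8% and 9.07% in OG2 MEF. Rplp2, an acidic stalk protein that binds elongation factors, stood at 39426 TPM in the library labelled R1 ESC, against 2663 in ICR MEF and 2549 in OG2 MEF, 14.8-fold higher (95% interval 14.3 to 15.3, from counting error only). Fau, whose product is cleaved to release the 40S protein eS30, was 9.80-fold higher (8.89 to 10.8), at 3294 TPM against 328 and 336. Rpl10, a 60S protein that joins late in assembly, ran the other way at 889 TPM against 3803 in ICR MEF and 4031 in OG2 MEF, 4.28-fold lower (4.06 to 4.52). Rpl39, Rpl4 and Rps3 were also below both MEF libraries, at 696, 840 and 402 TPM in the library labelled R1 ESC, without reaching the 4-fold threshold.

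Ribosomal protein genes lay more often above than below the median of other genes of their length. Of the 86 that averaged 10 TPM or more, 59 lay above that median on TPM, 16 of them by at least 4-fold, and 0 lay below it by 4-fold. Calls at 4-fold were common among other short genes too. Of 2164 other genes of up to 1353 bases, 294 were higher and 337 lower at similar length, on TPM without ribosomal protein genes. Rpsa, the laminin receptor and 40S protein, is among the longest ribosomal protein genes with 1699 bases. It stood at 20918 TPM in the library labelled R1 ESC, against 2531 in ICR MEF and 2697 in OG2 MEF, 7.76-fold higher (7.62 to 7.89), and its log2 difference from genes of its length was 4.58. The expected counts were whole for 60 of the 90 genes, with Rplp2, Rplp1 and Fau among those that were not, and reads of this family can come from its many processed pseudogenes.

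**Figure D3:**
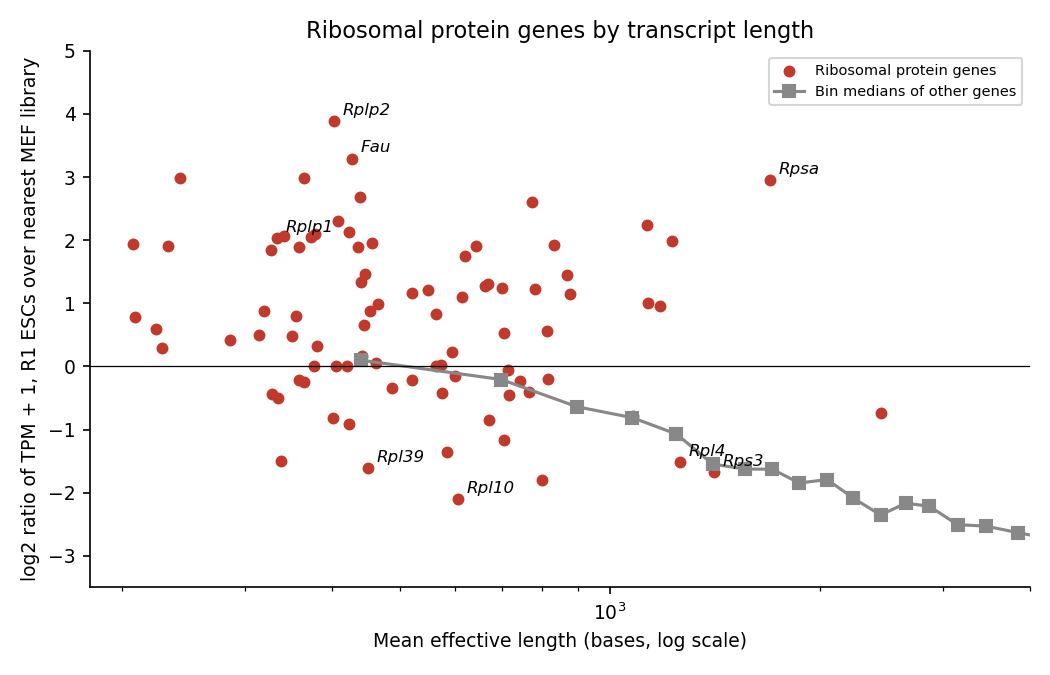
Log2 ratio of TPM + 1 of the library labelled R1 ESC over the nearest MEF library against mean effective length (bases, log axis), for ribosomal protein genes averaging 10 TPM or more (red) and as medians of other genes in 20 length bins (grey line). Rplp2 and Fau stand highest at 3.89 and 3.29 and Rpl10 lowest at -2.10, with the longer Rpsa at 2.96, while the grey line declines with length.

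The upstream bases of Rplp2, highest over the MEF libraries, and of Rpl10, the one that was lower, are shown to set both ends of the family side by side. They are the 100 bases before the annotated start, 5′ to 3′, from RefSeq on GRCm38.p6: Rplp2 at chr7:141447551-141447650 and Rpl10 at chrX:74270716-74270815, both on the plus strand.
Rplp2: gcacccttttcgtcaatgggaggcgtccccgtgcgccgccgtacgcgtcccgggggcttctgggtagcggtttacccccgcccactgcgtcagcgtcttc
Rpl10: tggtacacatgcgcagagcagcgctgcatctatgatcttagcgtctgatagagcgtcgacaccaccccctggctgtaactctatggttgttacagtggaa
The motifs searched on both strands were TATAAA, the element bound by TBP, and CCGGAAG, bound by factors of the ETS family, and TGANTCA, bound by AP-1, and neither window holds any of them. CCGGAAG was found upstream of 13 of the 64 ribosomal protein genes with a window (20.3%), of 0 of the 10 of these that were higher on TPM, and of 5.22% of 27025 genes.

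Among well-measured genes, the 15 that lay furthest above the MEF libraries at similar length included epithelial, secretory granule and membrane genes. Aldh3a1, an aldehyde dehydrogenase abundant in cornea (chromosome 11, 61207537 to 61218421, plus strand, GRCm38), had 1845 counts (405 TPM) in the library labelled R1 ESC and 0 in both MEF libraries, at least 413-fold higher. Its list did not move with it. Of 15 genes of cornea and aldehyde dehydrogenases 2 were higher and 2 lower on all 3 scales, and 10 lay below both MEF libraries on TPM. Nat8l, which makes N-acetylaspartate, stood at 45.0 TPM against 0.34 in ICR MEF and 0.19 in OG2 MEF, 132-fold higher (60.4 to 361). Its transcript is long, with a mean effective length of 6367 bases, so that its log2 difference at similar length (8.58) exceeded that on TPM (5.10). Epop, a Polycomb and elongin partner described in mouse embryonic stem cells, stood at 198 TPM against 3.37 and 3.74, 52.9-fold higher (35.9 to 81.4).

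Pcsk1n, the precursor of an inhibitor of prohormone convertase 1, had 360 counts against 0 and 0, and Adap1, an ARF6 GTPase-activating protein, had 402 counts against 1 and 1. Plcl2, Atp2a3 and Podxl, encoding a phospholipase C-like protein, a calcium pump of the endoplasmic reticulum and a sialomucin, were 22.2-fold (14.4 to 36.2), 48.5-fold (16.3 to 238) and 16.6-fold (9.69 to 30.8) higher, Atp2a3 and Podxl not reaching 4-fold on every scale with 5 TPM added. Mal, a lipid raft protein of myelin and apical membranes, was 72.7-fold higher (19.8 to 606). Several of these genes are also expressed in the brain libraries of the series, where the highest value was 922 TPM for Pcsk1n, 284 for Adap1, 245 for Mal and 164 for Atp2a3, against 0 for Nccrp1 and 1.34 for Aldh3a1. Wnk4, a kinase that regulates salt transport, and Pold1, the catalytic subunit of DNA polymerase delta, met the rule with effective lengths that differed 9.80-fold and 5.12-fold between the libraries. In CPM, which scales counts by depth and not by length, Wnk4 stood at 61.0 in the library labelled R1 ESC, 3.75 in ICR MEF and 6.66 in OG2 MEF, and Pold1 at 349, 31.8 and 33.1.

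**Figure D4:**
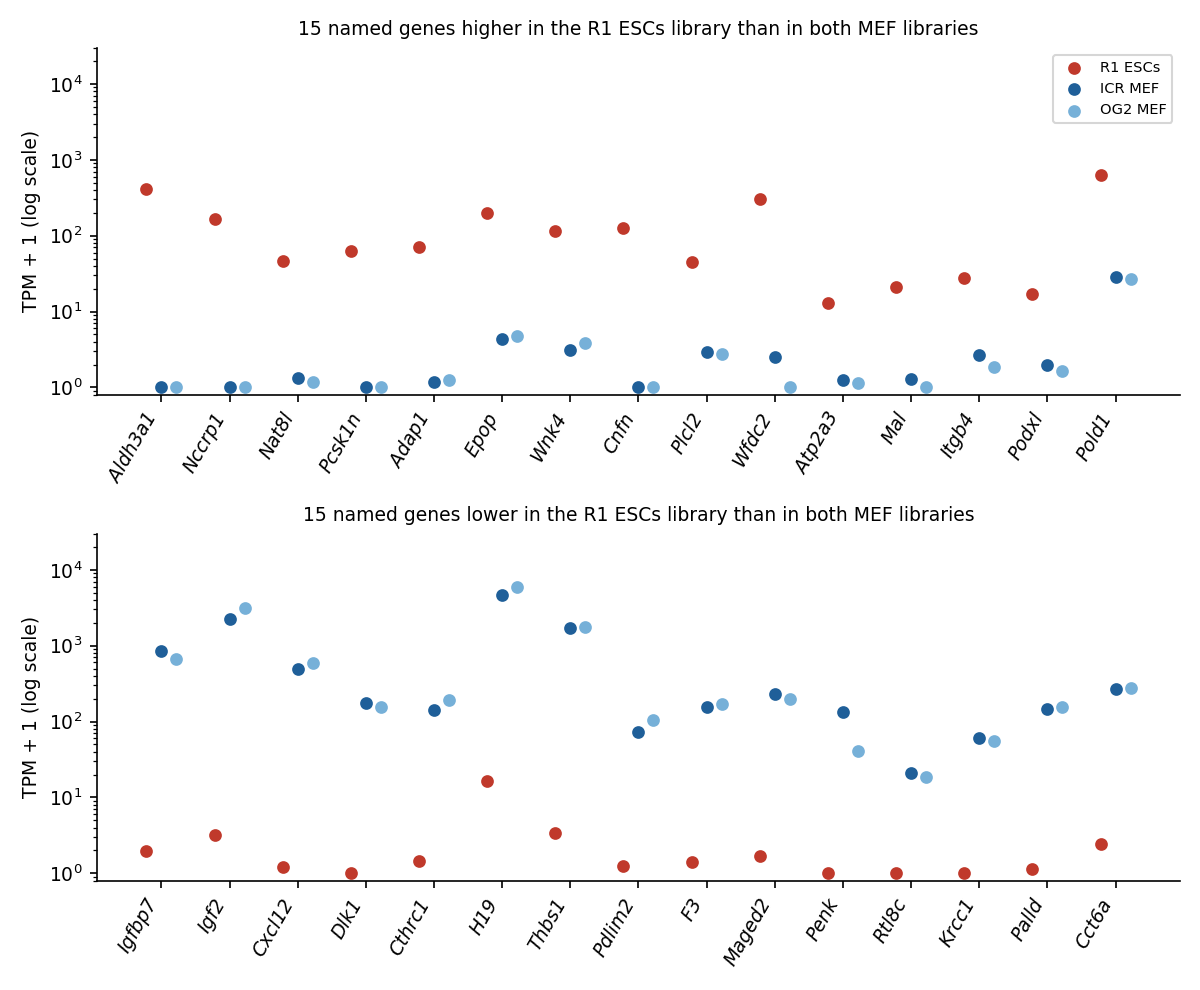
TPM + 1 (log axis) of the 15 named higher genes (top) and the 15 named lower genes (bottom) in the library labelled R1 ESC (red), ICR MEF (dark blue) and OG2 MEF (light blue), ordered by their difference at similar length. The top genes run from 12.0 to 621 TPM in the library labelled R1 ESC and the bottom genes from 0 to 15.4 TPM there.

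Genes of stratified squamous epithelium, the layered tissue of skin, oesophagus and cornea, were partly higher. Of 42 measured members 6 were higher and 0 lower on all 3 scales, 10 were higher without ribosomal protein genes, and with a floor of 1 TPM in place of 10 the count on all 3 scales was 11. Over all genes 1.3% were higher and 3.45% lower on all 3 scales. A lower call needs 10 TPM in both MEF libraries, where the 42 together held 166 TPM (ICR MEF) and 143 TPM (OG2 MEF). Few members could therefore be called lower, and the 0 is not read as a result. In all, 23 members had at most 3 counts in the library labelled R1 ESC. Nccrp1, a ubiquitin ligase subunit of squamous epithelium, stood at 163 TPM (654 counts) against 0 in both MEF libraries, at least 206-fold higher. Cnfn, a protein of the cornified envelope, had 141 counts against 0 and 0, at least 53.9-fold higher. Krt14 was 59.9-fold higher (30.1 to 140), with expected counts that were not whole, and Krt17 had 65.2 counts against 0 and 0. Sbsn and Krtdap, secreted proteins of differentiating keratinocytes that neighbour each other on chromosome 7, were 6.66-fold (4.60 to 9.81) and at least 5.18-fold higher, with effective lengths that differed by over 1.5-fold between the libraries.

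The squamous programme was not present as a whole. Krt5, Trp63, Krt1, Krt10, Flg, Dsg3 and Ivl, among the best known genes of basal and differentiated keratinocytes, had at most 3 counts in the library labelled R1 ESC. Outside the list, Lgals7, a galectin of squamous epithelia, stood at 34.6 TPM against 1.43 in ICR MEF and 1.48 in OG2 MEF. Itgb4, the hemidesmosome integrin, stood at 26.6 TPM against 1.66 and 0.85. Wfdc2, a secreted protease inhibitor of glandular and respiratory epithelium, stood at 306 TPM against 1.55 and 0, 198-fold higher (54.3 to 1638). It was the 1 member higher among 22 genes of secreted epithelial defence, of which 1 was lower and 16 had 0 counts in the library labelled R1 ESC.

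The windows upstream of 4 of the squamous genes called higher are shown as examples, so their shared direction follows from the choice. Capitals mark TGANTCA and TATAAA. They are again 100 bases before the start, from RefSeq on GRCm38.p6: Krt14 at chr11:100206031-100206130 and Cnfn at chr7:25369725-25369824 on the minus strand, and Sbsn at chr7:30751371-30751470 and Krtdap at chr7:30787805-30787904 on the plus strand.
Krt14: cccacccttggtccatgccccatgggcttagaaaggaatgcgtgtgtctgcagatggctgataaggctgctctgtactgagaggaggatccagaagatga
Cnfn: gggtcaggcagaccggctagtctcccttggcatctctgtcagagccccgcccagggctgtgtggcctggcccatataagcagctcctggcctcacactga
Sbsn: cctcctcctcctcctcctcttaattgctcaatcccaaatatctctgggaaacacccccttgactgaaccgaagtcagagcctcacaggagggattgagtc
Krtdap: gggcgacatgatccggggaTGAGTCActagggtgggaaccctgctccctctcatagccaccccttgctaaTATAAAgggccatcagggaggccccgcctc
Krtdap was the 1 of the 4 whose window held TGANTCA or TATAAA. Of the 22 squamous genes with a window, 11 held TATAAA and 4 held TGANTCA (18.2%), against 6.57% and 3.18% of all genes. Among genes higher on all 3 scales the shares were 3.27% and 3.74%, and among genes lower on all 3 scales 4.63% and 1.67%.

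Of 22 genes of simple epithelium 2 were higher and 1 lower on all 3 scales. On TPM 15 members lay above both MEF libraries and 4 below both, and 10 had at most 3 counts in the library labelled R1 ESC. The 2 higher ones, Krt8 and Cldn3, are given because they were called, so their direction follows from the choice. No other keratin of the list was called higher on all 3 scales. Krt8, a keratin of simple epithelia that is also made by early embryonic cells, stood at 36.9 TPM in the library labelled R1 ESC, against 4.19 in ICR MEF and 1.13 in OG2 MEF, and Cldn3, a tight junction claudin, at 25.5 TPM against 0.33 and 0.57. Krt7 was lower, at 0 TPM against 16.2 and 15.1. The adhesion genes Epcam and Cdh1, which mark both simple epithelium and embryonic stem cells, had 11 and 2 counts in the library labelled R1 ESC and 0 in both MEF libraries.

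A few genes of other lineages were higher too, beside well-known genes of the same lineages with few or 0 counts. On all 3 scales 1 of 12 endothelial genes was higher and 0 lower, and 2 of 13 erythroid genes were higher and 0 lower. Of 23 neuronal and neuroendocrine genes 2 were higher and 2 lower. Pecam1, an adhesion molecule of endothelium and also of mouse embryonic stem cells, stood at 14.6 TPM against 0 and 0, while the endothelial cadherin gene Cdh5 had 0 counts. Hbb-y, an embryonic beta-like globin, had 47 counts and the alpha-globin gene Hba-a1 had 44.8, against 0 of either in the MEF libraries, while adult Hbb-bs had 0 counts. Scg5, a chaperone of prohormone convertase 2, stood at 20.2 TPM against 0.35 in ICR MEF and 1.19 in OG2 MEF. Of neuronal markers, Snap25 and Rbfox3 had 1 count each.

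Of 17 genes of retina and photoreceptors 2 were higher on all 3 scales and 12 had 0 counts. Sag, the arrestin of photoreceptors, stood at 189 TPM in the library labelled R1 ESC, against 3.42 in ICR MEF and 1.63 in OG2 MEF, and Gnat1, the rod transducin subunit, at 91.9 TPM against 2.98 and 2.61. Of 23 genes of macrophages and leukocytes 1 was higher and 1 lower. The higher one, Unc13d, which primes lytic granules for release, stood at 514 TPM against 7.03 and 9.72, while the leukocyte marker Ptprc had 0 counts. Of 18 muscle genes 1 was higher and 1 lower. The higher one, Alpk2, an alpha-kinase described in heart, stood at 351 TPM against 4.78 and 3.40, while the muscle regulator Myod1 had 0 counts. Expected counts of Sag, Gnat1, Unc13d, Alpk2, Pecam1 and Hba-a1 were not whole. Over all genes 1.3% were higher and 3.45% lower on all 3 scales. A call of 1 gene in a list of this size is therefore not read as a sign of its lineage.

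Of 25 genes of naive pluripotency 3 were higher on all 3 scales, namely Pou5f1, Tdh and Nanog, and Klf2 was lower. Tdh, the threonine dehydrogenase on which mouse embryonic stem cells depend, was 69.1-fold higher (12.0 to 2767), and Pou5f1 at least 10.7-fold. Klf2, a Kruppel-like factor of the naive network, had 2 counts against 91 in ICR MEF and 63 in OG2 MEF, and was not called with 5 TPM added or with bins set by the lengths of the library labelled R1 ESC. A further 11 genes of the list had 0 counts in the library labelled R1 ESC, Lin28a and Dppa4 among them. With genes of effective lengths within 1.5-fold alone, 1 member was higher. Of 17 chromatin and RNA partners of pluripotency 0 were called on all 3 scales, and 13 lay below both MEF libraries on TPM. On TPM 5 were lower, against 4 without ribosomal protein genes and 0 at similar length. L1td1, an RNA-binding protein of pluripotent cells, was the 1 member higher without ribosomal protein genes. It was also higher at similar length, at 4.97 TPM against 0 and 0.13.

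Of 25 signalling genes that maintain or end self-renewal 22 lay below both MEF libraries on TPM, and 8 were lower on all 3 scales and 0 higher. Their median log2 ratio was -2.54 on TPM and -0.53 at similar length. Over all genes averaging 1 TPM or more the medians were -1.73 and 0.00, so most of the shift on TPM was shared with other genes. Il6st, the gp130 receptor subunit through which leukaemia inhibitory factor signals, stood at 1.59 TPM in the library labelled R1 ESC, against 170 in ICR MEF and 158 in OG2 MEF. Ctnnb1, beta-catenin of the Wnt pathway, stood at 5.41 TPM against 468 and 421, 77.3-fold lower on TPM, and Jak1, the kinase bound to gp130, at 2.68 TPM against 112 and 114. Id3, a target of BMP signalling, stood at 17.0 TPM against 192 and 233.

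The 15 well-measured genes furthest below the MEF libraries at similar length were led by secreted and imprinted genes. Igfbp7, a secreted binding protein of the IGF family, had 3 counts in the library labelled R1 ESC against 2273 in ICR MEF and 2029 in OG2 MEF, 680-fold lower (232 to 3299). Cxcl12, a chemokine of stromal cells, had 1 count against 2998 and 4296, and Thbs1, a matricellular glycoprotein, stood at 2.37 TPM against 1726 and 1773, 728-fold lower (533 to 1025). F3, the tissue factor that starts coagulation, stood at 0.40 TPM against 154 and 169, and Cthrc1, a secreted collagen triple helix repeat protein, at 0.45 TPM against 139 and 192. Penk, the proenkephalin gene, had 0 counts against 320 in ICR MEF and 109 in OG2 MEF.

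Several of these genes were not of the matrix. Palld and Pdlim2, actin-associated proteins, had 1 count each in the library labelled R1 ESC, against 923 and 1144 counts of Palld and 186 and 314 counts of Pdlim2. Cct6a, a subunit of the chaperonin that folds actin and tubulin, had 6 counts against 1062 and 1258, 187-fold lower (85.8 to 512). Cct3 and Cct7 of the same complex stood otherwise, Cct3 at 999 TPM against 410 and 414, and Cct7 at 427 against 274 and 308. Of the 21 listed heat shock and chaperonin genes, 17 lay below both MEF libraries on TPM and 4 above both. Maged2, Rtl8c and Krcc1 had 4, 0 and 0 counts in the library labelled R1 ESC. Rtl8c passed the rule of at least 10 counts narrowly, with 13 in each MEF library. With 3 counts allowed in the library labelled R1 ESC, Rtl8c was at least 4.42-fold lower on TPM. Without ribosomal protein genes it was at least 2.77-fold lower, so its call there depends on the 1 TPM added.

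Matrix genes were lower at any scale, and their count shrank with the length correction. Of 25 genes of fibrillar collagens and their assembly 22 were lower on TPM, 17 without ribosomal protein genes and 10 at similar length, with 0 higher. Their median log2 ratio was -3.73 on TPM and -1.19 at similar length, against -1.73 and 0.00 over all genes averaging 1 TPM or more. Col3a1, a collagen of elastic tissues, stood at 7.23 TPM in the library labelled R1 ESC, against 1206 in ICR MEF and 920 in OG2 MEF, a log2 difference of -4.11 at similar length. Lox, which crosslinks collagen, stood at 4.41 TPM against 1232 and 1034. Pcolce, an enhancer of procollagen processing, was the 1 exception above both, at 839 TPM against 721 and 716.

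Other fibroblast matrix genes kept more of their calls: 23 of 26 were lower on TPM and 19 on all 3 scales, with a median of -2.50 at similar length. Fbln2, a fibulin of elastic fibres, stood at 12.7 TPM against 1601 in ICR MEF and 1444 in OG2 MEF, and elastin itself (Eln) had 0 TPM against 68.8 and 50.3. Bgn, a small proteoglycan, stood at 124 TPM against 3129 and 2567, the highest of the 19 in the library labelled R1 ESC. Genes of the basement membrane, which are long, behaved otherwise: 11 of 16 were lower on TPM and 3 on all 3 scales, with a median of 0.00 at similar length. The 3 were Nid1 and Nid2, the nidogens that link laminin to collagen IV, and Col4a5. Nid1 stood at 0.47 TPM against 243 and 272.

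Of 22 fibroblast lineage markers 8 were lower on all 3 scales. Thy1, a surface glycoprotein, stood at 8.28 TPM in the library labelled R1 ESC, against 336 in ICR MEF and 419 in OG2 MEF, and the PDGF receptors Pdgfra and Pdgfrb at 0.27 and 2.50 TPM. Contractile and focal adhesion genes were lower for 14 of 29. Acta2, smooth muscle actin, stood at 235 TPM against 4302 in ICR MEF and 5067 in OG2 MEF. Tpm4, a tropomyosin, stood at 12.1 TPM against 991 and 962, and Vcl, the focal adhesion protein vinculin, at 0.71 TPM against 301 and 310. Actb, the cytoplasmic actin, ran the other way: it stood at 4837 TPM against 3517 and 2880, 1.38-fold higher (1.35 to 1.40), and was called higher at similar length alone. Targets of YAP and TGF-beta signalling were lower for 7 of 13 and higher for 0, with Ccn2, a matricellular protein, at 5.63 TPM against 443 in ICR MEF and 472 in OG2 MEF.

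Imprinted genes, expressed from 1 parental allele and abundant in embryonic mesenchyme, were lower for 13 of 28 and higher for 0. H19, the maternally expressed non-coding RNA (chromosome 7, 142575529 to 142578143, minus strand), stood at 15.4 TPM in the library labelled R1 ESC, against 4622 in ICR MEF and 5859 in OG2 MEF, 301-fold lower (246 to 372). Its paternally expressed neighbour Igf2 (chromosome 7, 142650766 to 142666816, minus strand), a fetal growth factor, had 11 counts in the library labelled R1 ESC and stood at 2.16 TPM against 2266 and 3090. On chromosome 12, Dlk1, a Notch-related ligand of the paternal allele, had 0 counts against 666 and 689, and Rian, a maternal non-coding RNA of the same cluster, stood at 2.53 TPM against 570 and 613. Of 38 HOX genes, which specify position along the body axis, 4 were lower. Among all genes averaging 10 TPM or more, 344 of the 2164 of 1353 to 2194 bases were lower. The HOX count is therefore not read as a result about the family. Hoxb8 was at 0 TPM against 12.7 and 16.3, while Hoxc9 was above both at 22.3 TPM against 7.86 and 9.51.

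Stress and early response genes were lower or not called. Of 24 genes of the unfolded protein and integrated stress responses 6 were lower and 0 higher, with a median of -1.33 at similar length. Trib3, a pseudokinase induced by ATF4, stood at 0.55 TPM in the library labelled R1 ESC, against 69.0 in ICR MEF and 66.3 in OG2 MEF, and Pdia4, a chaperone of the endoplasmic reticulum, at 4.15 TPM against 247 and 289. Of 18 immediate early genes 4 were lower, Jun, Junb, Dusp1 and Zfp36. Zfp36, which destabilises AU-rich mRNAs, stood at 0.21 TPM against 44.7 and 45.3. Among cell cycle inhibitors and p53 targets 3 of 22 were lower, including Trp53 itself at 4.47 TPM against 122 and 122. Among all genes averaging 10 TPM or more, 344 of the 2164 of 1353 to 2194 bases were lower on all 3 scales. The counts of immediate early genes and of p53 targets are therefore not read as results about those lists. Hmox1, haem oxygenase, stood at 1.19 TPM against 134 and 126, while of the same 27 genes of xenobiotic defence Gstp1 stood at 1550 TPM against 468 and 279.

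Lysosomal and cholesterol genes lost calls both with the rescaling and with the length correction, as genes did in general. Over all genes 4064 were lower on TPM, 3381 without ribosomal protein genes and 1084 at similar length. Of 21 lysosomal genes 17 were lower on TPM, 10 without ribosomal protein genes, 4 at similar length and 3 on all 3 scales, among them Lamp1, a lysosomal membrane protein, and Ctsl, a lysosomal protease. Of 20 genes of cholesterol synthesis 15 were lower on TPM, 11 without ribosomal protein genes and 3 at similar length, the same 3 as on all 3 scales: Nsdhl, Sc5d and Lss. Fdft1, squalene synthase, lay above both MEF libraries instead, at 155 TPM against 91.1 in ICR MEF and 88.3 in OG2 MEF. Of the galectins, S100 proteins and annexins, 5 of 18 were lower and 2 higher. Lgals1, a galectin of mesenchyme, stood at 689 TPM against 5768 and 6916, and Anxa1, a membrane-binding annexin, at 7.46 TPM against 789 and 804.

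For genes that make ribosomes and copy DNA the direction depended on the scale: most lay below both MEF libraries on TPM, while their medians lay above other genes of their length. Of 25 nucleolar genes 14 were below both MEF libraries on TPM, with 2 called higher, 3 lower and a median log2 ratio of -0.51 (-1.73 over all genes). At similar length 9 were higher and 0 lower, with a median of 1.46 against 0.00 over all genes, and 2 were higher on all 3 scales. Nhp2, a core protein of H/ACA particles, stood at 839 TPM in the library labelled R1 ESC, against 87.0 in ICR MEF and 111 in OG2 MEF. Ncl, nucleolin, stood at 2479 TPM against 307 and 282, with an effective length of 615 bases in the library labelled R1 ESC against 3399 and 3343, and its CPM was 2049, 601 and 567. Of 32 DNA replication genes 20 were below both MEF libraries on TPM, with 2 called higher, 5 lower and a median of -0.62. At similar length 10 were higher and 0 lower, with a median of 1.04, and 2 were higher on all 3 scales. Ung, the uracil-DNA glycosylase, was 4.63-fold higher (3.21 to 6.80). Lig1, the replicative ligase, stood at 128 TPM against 34.7 and 40.2, without reaching the 4-fold threshold on TPM.

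Of 29 mitosis genes 5 were lower on all 3 scales and 0 higher, and the lower count was 1 with 5 TPM added and 9 at a 2-fold threshold. Among all genes averaging 10 TPM or more, 344 of the 2164 of 1353 to 2194 bases were lower. The mitosis count is therefore not read as a result about the list. Cdk1, the kinase that drives entry into mitosis, stood at 9.26 TPM in the library labelled R1 ESC, against 166 in ICR MEF and 187 in OG2 MEF, and Ndc80, of the kinetochore, at 0.17 TPM against 20.2 and 15.6. Mki67, the proliferation antigen with a mean effective length of 9913 bases, stood at 24.4 TPM against 39.8 and 25.6, and was higher at similar length. Chromatin regulators with long transcripts (median effective length 5941 bases) were lower for 10 of 29 on TPM, but 4 were higher and 0 lower at similar length. Among these 4, Bptf, a subunit of the NURF remodeller, had an effective length of 1996 bases in the library labelled R1 ESC, against 9315 in ICR MEF and 9483 in OG2 MEF.

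Large complexes had few called subunits, to be read against the 1.3% of all genes that were higher and the 3.45% that were lower. Those shares include many genes with few or no counts. Among genes averaging 10 TPM or more, 208 of the 2164 shortest (up to 1353 bases) were higher on all 3 scales and 298 lower. Of the next 2164 (up to 2194 bases), 67 were higher and 344 lower. The few calls below are therefore not read as a result about the complexes. Of 37 genes of respiratory complex I 3 were higher on all 3 scales (Ndufa2, Ndufa5, Ndufv1) and 1 lower (Ndufa6), and of 40 genes of complexes II to V 2 were higher and 3 lower. Atp5e, the epsilon subunit of ATP synthase, stood at 5511 TPM in the library labelled R1 ESC, against 487 in ICR MEF and 451 in OG2 MEF, 11.3-fold higher (10.2 to 12.7). Sdhd, the membrane anchor of succinate dehydrogenase, stood at 8.19 TPM against 163 and 162. The medians at similar length were 0.14 and -0.13. Of 31 proteasome genes 2 were higher (Psmb4 and Psmd4) and 1 lower (Psma3). Of 29 genes of the spliceosome core 2 were higher (Lsm7 and Lsm2) and 1 lower (Lsm8), and of 29 translation factors 2 were higher (Eef1d and Eif6) and 1 lower (Eif1b). Of 51 genes of the mitochondrial ribosome 1 was higher, Mrps25, and 1 lower, Mrps22.

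**Figure D5:**
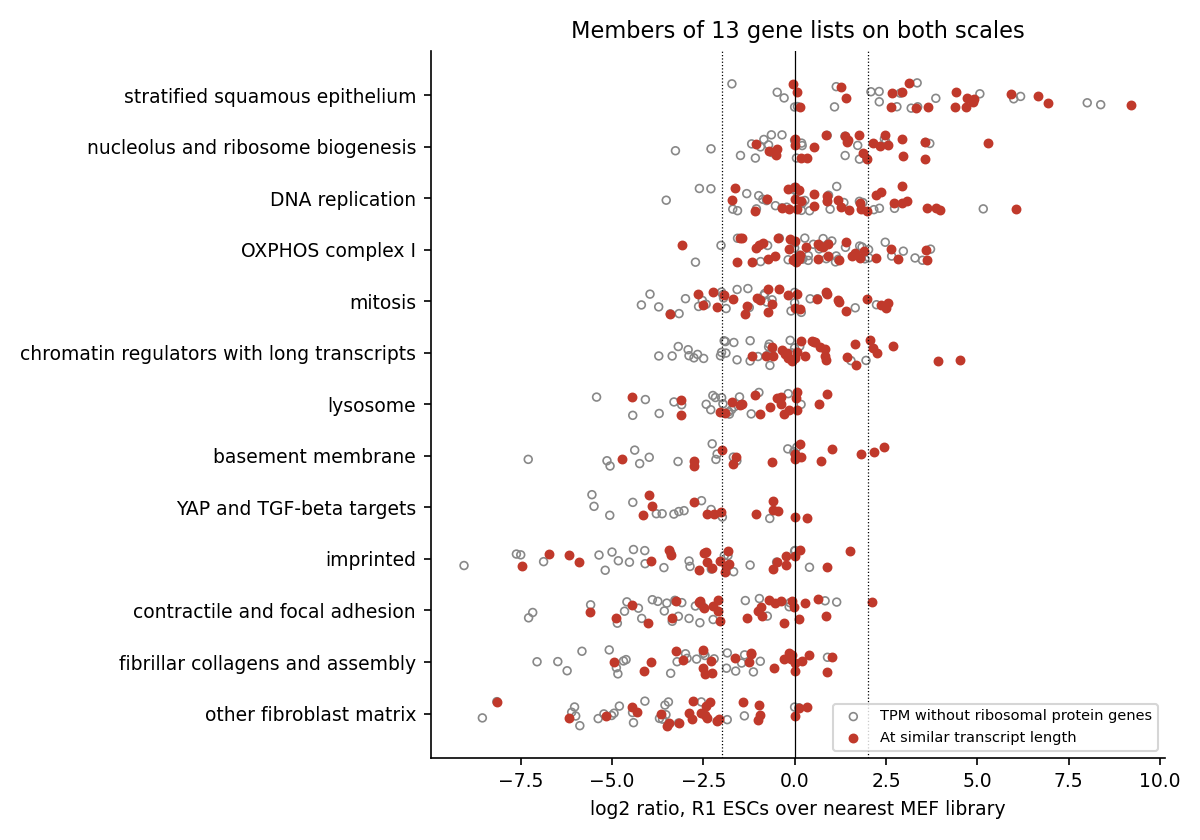
Log2 ratio of the library labelled R1 ESC over the nearest MEF library for members of 13 gene lists that average 1 TPM or more, on TPM without ribosomal protein genes (open grey) and at similar transcript length (red); dotted lines mark 4-fold. Matrix, contractile and imprinted genes lie mostly left of 0 on both scales, while nucleolar, replication and long chromatin genes lie mostly right of their grey points; squamous members low in the MEF libraries enter only through the library labelled R1 ESC.

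Xist, the RNA that silences 1 X chromosome in female cells, differed in TPM and in effective length, and less in CPM. It stood at 206 TPM in the library labelled R1 ESC, against 21.2 in ICR MEF and 16.8 in OG2 MEF, with effective lengths of 660 bases against 14445 and 14411. Its CPM was 183, 177 and 146. Reads on the Y-linked gene Ddx3y were present in all 3 libraries, with 61 counts in the library labelled R1 ESC, 278 in ICR MEF and 110 in OG2 MEF.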

How the data were processed

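RNA of 3 libraries was compared, each the only one of its group, so no test across libraries was run. Libraries were made from 1 ug of total RNA with the Illumina TruSeq RNA kit, per the labels' protocols. The submitters' processing notes name Bowtie, RSEM and the build mm10; the sources used here give no versions, annotation release or strandedness. Expected counts per gene were deposited by the authors, per the file headers. The same deposited tables hold TPM, for which RSEM divides by effective length, and that effective length itself, in bases. Expected counts were used as deposited and were rounded to whole numbers for intervals and thinning.

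The comparison (and so its member libraries) and the gene lists were chosen with earlier results of these data known, while each library's group comes from its label. Ribosomal protein genes are 86 listed genes and 4 more found by symbol pattern (Rps27rt, Rps19bp1, Rpl7l1, Rpl6l). Similar length means the log2 ratio less the median of the same ratio in 1 of 20 bins of mean effective length, set over genes averaging 10 TPM or more. A library between the MEF libraries gets a ratio of 0. Named genes are the 15 per direction with the largest difference at similar length among genes called on all 3 scales, with whole counts (within 0.01) and at least 10 counts on the higher side, leaving out predicted models, ribosomal, small RNA and antisense genes. List examples are called members with high TPM on the higher side, and genes given beside them that were not called were picked after their values were seen. Folds are ratios of TPM to the nearest MEF library, with exact (Clopper-Pearson) 95% intervals from counts, which cover counting error only. A library at 0 counts is set at 3 counts. In the library labelled R1 ESC, with 2147004 counts, a transcript of 2000 bases with 3 counts has 0.520 TPM. Coordinates and GC come from GENCODE M21 (GRCm38), by gene identifier, with GC for 29400 genes. Promoter windows come from RefSeq, matched by symbol and left out for chromosome 18, for 22 of 42 squamous and 64 of 86 ribosomal protein genes.

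Alternatives were 0.1 or 5 TPM added, a floor of 1 TPM, a 2-fold threshold, counts thinned to 2146964, either MEF library left out, whole counts alone, edgeR's TMM factors applied to TPM, CPM, a wider set of genes left out of the scale, 10 or 40 bins and the length in the library labelled R1 ESC. Bins of length and GC, and effective lengths within 1.5-fold, were added after seeing the data. The calling was tested on simulated data. Tools were edgeR 4.0.16 under R 4.3.3, and pandas 2.3.3, scipy 1.17.1, numpy 2.4.6 and matplotlib 3.10.9 under Python 3.11.15.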

Additional observations from a re-analysis of the deposited data

How the results depend on the processing

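With 1 library per group, spread between cultures is unknown, and depth limits genes near 3 counts. No paired analysis was possible because each group held 1 library and no test was run.

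Counts are given as higher and lower, in the order TPM, TPM without ribosomal protein genes, similar length, all 3 scales. With 5 TPM added the lower counts were 2485, 2132, 589 and 544, and the higher counts stayed within 1.5 times. A floor of 1 TPM gave 1945 higher at similar length. A 2-fold threshold gave 806, 1379, 2364 and 736 higher, and 5117, 2536 and 2349 lower on the last 3. With whole counts alone 146, 330, 613 and 126 were higher. With effective lengths within 1.5-fold 252, 470, 818 and 229 were higher. In both of these, fewer genes were tested. TMM factors gave 692 higher on TPM and 597 on all 3 scales, with 2916 lower on TPM, and CPM gave 886 higher and 3023 lower in place of TPM, so that the share of lower calls moved by over 10 percentage points. For the other changes the cause was not tested. Leaving out either MEF library gave 453 to 485, 826 to 857, 1384 to 1410 and 406 to 445 higher, and 4279 to 4625, 3603 to 3912, 1233 to 1275 and 1132 to 1174 lower. Bins of length and GC kept 375 of the 384 higher and 797 of the 1021 lower genes. The ribosomal protein share was 33.2% of expected counts and 49.9% of TPM with listed genes alone, against 50.7%.

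Of 414 recomputed values of the 30 named genes, 412 kept their call, 2 (Atp2a3 and Podxl with 5 TPM added) fell under 4-fold on a scale and 0 reversed. Of 384 recomputed counts of list members, 36 moved by over 1.5 times. With whole counts alone 6 collagen and 9 contractile genes were lower, and with 5 TPM added 1 naive pluripotency gene was higher and 1 mitosis gene lower. With a floor of 1 TPM 11 squamous genes were higher. At a 2-fold threshold 9 mitosis genes were lower, and 7 nucleolar, 6 replication and 10 complex I genes were higher.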
